A study of Mus musculus with 22 samples.

Results

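Ionocyte-like microvillous cells were selected on measured UMI counts from scRNA-seq of the mouse olfactory epithelium (OE). A cell was a member when its RNA held at least 3 UMIs (unique molecular identifiers, 1 for each captured molecule) of 5 rule genes together, Cftr, Ascl3, Foxi1, Coch and Moxd1. It also had to hold fewer than 3 UMIs of the tuft cell genes Trpm5, Sh2d6, Pou2f3 and Avil, less than 0.5% of its UMIs from the sustentacular genes Cyp2g1, Cyp2a5 and Sec14l3, and less than 5% from the neutrophil genes S100a8 and S100a9. Of 32293 barcodes, 25185 were kept as cells because over 500 genes and over 1500 UMIs were detected in them and mitochondrial transcripts made up under 20%, and 1831 of these, or 7.27%, were members. The OE came from 4 WT and 4 Upf3b-null mice, 1 library per mouse, all adult males of C57BL/6 background. Upf3b is X-linked, so a null male carries only the null allele, and every cell of the animal lacks the gene. The same study sorted OMP-eYFP+ mature olfactory sensory neurons (mOSNs) for RNA-seq, 4 WT and 4 Upf3b-null libraries, and isolated ribosome-bound mOSN RNA with RiboTag, 3 WT and 3 Upf3b-null libraries. Each of these bulk libraries pooled male mice in which Omp-Cre switched on eYFP or the tagged ribosomal protein, so both assays depend on where Omp-Cre had been active.

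Ionocytes are rare epithelial cells that move ions and acid across an epithelium and are found in airway, kidney and inner ear. Their identity depends on the forkhead factor FOXI1, and in airways they are the main site of CFTR, the chloride and bicarbonate channel that is mutated in cystic fibrosis. In the OE the microvillous cells that carry ASCL3 belong to this type, while a second microvillous type resembles tuft cells and carries TRPM5. UPF3B is an adaptor of nonsense-mediated decay (NMD), the pathway that removes transcripts whose translation stops in an unusual context, and the comparison here asks what its loss does in the OE.

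The members were chosen on the summed UMIs of the 5 rule genes, so the levels of these genes are a description without a test. Levels are given as CPM, counts per 1000000 UMIs of the summed cells of 1 mouse, which need no correction for gene length because each UMI stands for 1 captured molecule, and are means over 8 mice unless said otherwise. Coch, which encodes the secreted protein cochlin (chromosome 12, 51593341 to 51605771, GRCm38), was the most abundant, with a lowest level of 4704 CPM, a median of 6621 and a highest of 10601 over the mice, against a mean of 89.5 in all other kept cells. Ascl3, a basic helix-loop-helix factor (chromosome 7, 109727465 to 109731726), ranged from 777 to 3079.9 CPM (median 1165). Moxd1, a copper-dependent monooxygenase homologue (chromosome 10, 24223517 to 24302790), ranged from 371 to 1019.6 CPM. Foxi1 (chromosome 11, 34204338 to 34208089) ranged from 262 to 757 CPM and Cftr (chromosome 6, 18170687 to 18322768) from 148 to 486 CPM. Mature OSN-like cells are the 11210 kept cells with 5 or more UMIs of Omp, Cnga2, Stoml3 and Adcy3 that also met other limits. They held too few rule-gene UMIs to be members and met the limits on tuft, sustentacular and neutrophil genes. Foxi1 had at least 1 UMI in 64.0% of members and in 1.15% of mature OSN-like cells, and Cftr in 62.6% and 1.19%. Coch was found in 96.3% of members but also in 18.8% of the mature OSN-like cells. Because this class is limited on the rule genes, its low shares are partly set by its definition and are no separate check. The median depth per mouse was 2195 to 3586.5 UMIs in members and 1880.0 to 3846 in mature OSN-like cells.

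The members fell into a large set with strong marker signal and a smaller one near the limit. At least 10 rule-gene UMIs were found in 1480 members (median 35), and 351, or 19.2%, held 3 to 9. Of all members 686 carried all 5 rule genes, 584 carried 4, 257 carried 3, 196 carried 2 and 108 only 1. Just inside the limit, 211 members held exactly 3 rule-gene UMIs, and just outside it, 736 cells that met every other limit held exactly 2. In the members with 3 to 9 UMIs, Foxi1 was detected in 24.2% of cells and Cftr in 17.9%, against 73.4% and 73.2% of those with 10 or more, while Coch was still found in 86.9%. The limit on sustentacular genes removed 183 cells with 3 or more rule-gene UMIs, the neutrophil limit 43 and the tuft limit 6. The cells near the limit were not evenly spread: they made up 37.7% of the members of WT replicate 3, 26.8% in Upf3b-null replicate 3 and 22.4% in WT replicate 4, but between 3.33% and 12.1% in the other 5 mice. Results are therefore also given for the 1480 members with 10 or more UMIs, a choice made after the values were seen.

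The libraries differed in ways that bear on every result. They formed 2 groups when their summed members were compared across genes. WT replicates 3 and 4 and Upf3b-null replicate 4 correlated at r = 0.9505 to 0.962 with each other, the other 5 libraries at 0.811 to 0.920, and libraries of different groups at 0.805 to 0.894. The predicted gene Gm42418 was at 4306, 3620.2 and 5890.3 CPM in the 3 libraries of the second group and between 116 and 191 in the others. The study states that libraries came from independent experiments, but the labels give no batch, so that this grouping was found in the data alone. Hemoglobin RNA took 21.1% of the members' UMIs in Upf3b-null replicate 3, against 20.2% in the other kept cells of that mouse and at most 2.83% of the members' UMIs in any other library. There, 22 of 142 members held 5% or more hemoglobin UMIs, and hemoglobin came to 1.58% of UMIs in the members with 10 or more rule-gene UMIs. In addition, 66 members had a barcode that was also among the kept cells of another library, 3.605% of members and 2.97% of all kept cells, and the cells with the highest doublet scores, 4.24% of kept cells, included 154 members (8.41%).

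Transcription factors known from ionocytes and acid-secreting cells followed the rule genes without being part of the rule. Tfcp2l1, a grainyhead-like factor needed in the collecting duct of the kidney, was at 278.5 CPM against 12.1 in other kept cells. Foxi2, a paralogue of Foxi1, was at 121 against 1.58 CPM, Dmrt2 at 113 against 1.98, the homeobox factor Prox1 at 137 against 3.36 and the orphan nuclear receptor Esrrg at 67.3 against 1.43. Each of these 5 factors was higher in members than in other kept cells in all 8 mice. Tuft-like cells carried part of this set, with Prox1 at 71.9 CPM and Tfcp2l1 at 57.4. Of the 25 factors listed for microvillous and basal lineages, 6 were more than 4-fold higher in members, where this held for 164 of all 3073 genes at 50 CPM or more, and Foxi3 had no UMI in any member. Factors of the tuft and gland lineages lay elsewhere: Elf3 was at 77.5 CPM in members and 252 in tuft-like cells, Ehf at 25.7 and 269, and Sox9 at 25.5 and 475. Tuft-like cells are the 149 kept cells with 3 or more UMIs of the tuft genes named above fewer than 3 of the rule genes and the same limits on sustentacular and neutrophil genes, and they were found in 7 of 8 mice.

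FOXI1 binds forkhead sequences, so the promoters of the 5 rule genes and the 30 leading genes were searched for forkhead letters. RefSeq promoters of GRCm38.p6, 250 bases before to 50 after the start, were found for 26 of these 35 genes. None held TGTTTAC on either strand, a 7-base run present in 3.65% of all 32851 promoters. The close variant TGTTTGC, in 5.07% of all promoters, occurred in 1, that of Prox1 (build GRCm38.p6, chr1:190169620-190169644, minus strand), with the 7 bases in capitals beginning 120 bases before the start.
Prox1: tttgcttgcTGTTTGCatacctttc
A match of letters is a description of this window, and the absence of one says only that these letters are not in it.

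Of the 35 channels and transporters listed, sodium and chloride transport genes among them, 6 were more than 4-fold higher in members. This held for 164 of all 3073 genes at 50 CPM or more. The 3 subunits of the epithelial sodium channel ENaC were all present. Scnn1a was at 222 CPM against 14.05 in other kept cells, Scnn1b at 185 against 4.11 and Scnn1g at 126 against 1.81. Bsnd, which encodes barttin, a membrane protein of chloride-transporting cells of kidney and inner ear, was at 127 against 1.68 CPM. Slc12a2, the sodium-potassium-chloride cotransporter that loads cells with chloride, was at 1027 against 173 CPM. Atp1b1, the beta subunit of the sodium pump, was at 1396 CPM against 885. Kcnma1, a calcium-activated potassium channel, was at 119 against 43.8 CPM. Pendrin (Slc26a4), the chloride and bicarbonate exchanger of other ionocytes, was at 1.51 CPM with a median of 0, Ano1 was at 6.18, and Slc4a9 and Kcne1 had no UMI. The water channels Aqp3, Aqp4 and Aqp5 were at 42.7, 21.7 and 24.1 CPM in members, against 928, 522 and 784 in sustentacular-like cells. Sustentacular-like cells are the 1443 kept cells that met 4 limits. They had 1% or more of their UMIs from the sustentacular genes and less than 5% from the neutrophil genes. They also held fewer than 3 UMIs of the rule genes and fewer than 3 of the tuft genes.

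The V-ATPase, the proton pump of acid-secreting cells, was represented by an incomplete set of tissue-specific subunits. Atp6v0d2, the d2 subunit, was at 160 CPM against 1.64 in other kept cells and was among the 30 leading genes. Shared subunits were also higher: Atp6v0b was at 1144 against 286 CPM, the accessory protein Atp6ap2 at 813 against 156 and Atp6v1d at 516 against 152, each in all 8 mice. In contrast, the B1 subunit Atp6v1b1, a usual marker of acid-secreting ionocytes, was at 23.5 CPM in members and 190 in sustentacular-like cells, where it was higher in all 8 mice. The a4 subunit Atp6v0a4 was at 4.72 and 149 CPM, and the C2 subunit Atp6v1c2 at 107 and 342. Atp6v1e2 had no UMI in any member. Of 25 subunits listed, 2 were more than 4-fold higher in members, a share near that of all genes at 50 CPM or more (164 of 3073). The list was counted from a mean of 10 CPM, so these shares differ in their limit. Carbonic anhydrases, which supply protons and bicarbonate, were scarce: 5 of 15 had a mean of at least 10 CPM. Of the 15, 2 were more than 4-fold higher in members than in other kept cells, also counted from 10 CPM. Over all genes at 50 CPM or more it was 164 of 3073. Car6, 1 of these 2, was at 739 CPM in Upf3b-null replicate 4 and at most 3.06 in any other mouse. It had a UMI in 1.09% of members and was at 2.75 CPM in the pooled members with 10 or more UMIs. Car2 was at 151 CPM but with a median of 32.1, and at 39.1 CPM in the pooled members with 10 or more UMIs against 563 in those with 3 to 9.

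**Figure D1:**
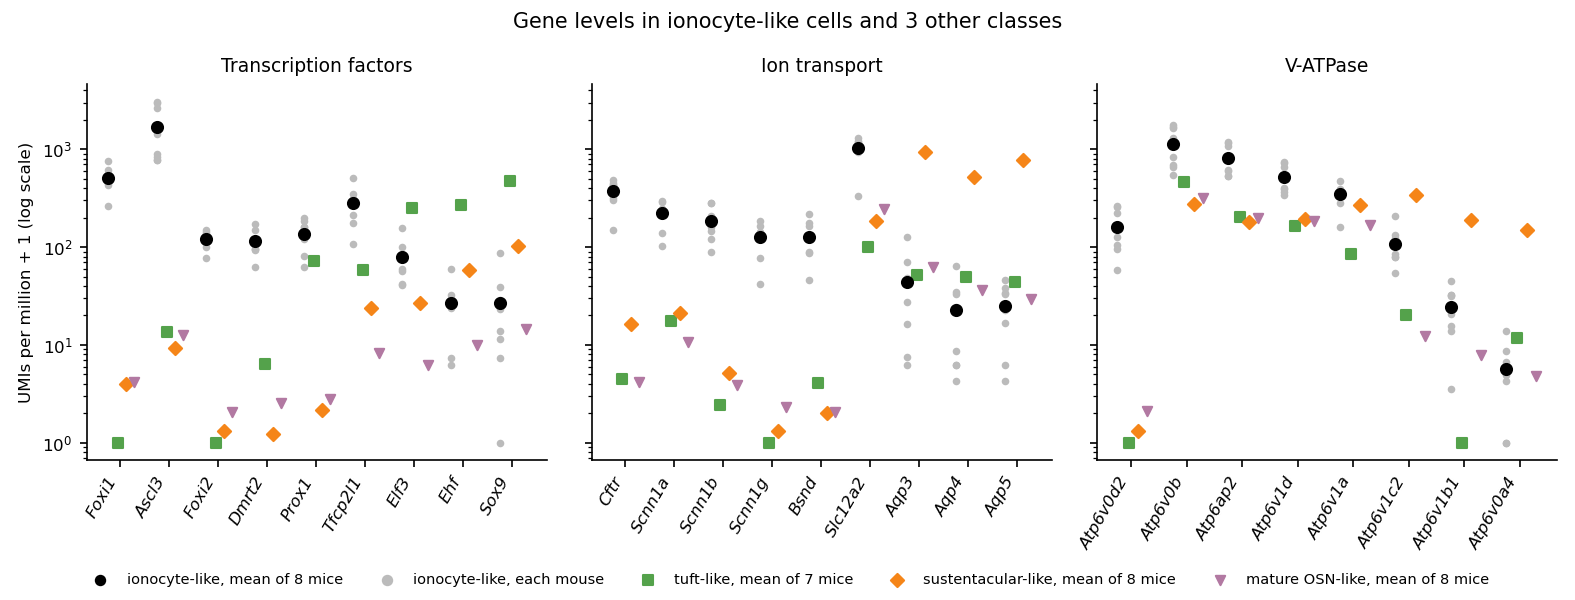
Levels of transcription factor, ion transport and V-ATPase genes as CPM plus 1 on a log axis, for ionocyte-like cells (black, mean of 8 mice; grey, each mouse), tuft-like cells (7 mice), sustentacular-like cells and mature OSN-like cells (8 mice each). Foxi1, Scnn1g and Atp6v0d2 were at 512, 126 and 160 CPM in ionocyte-like cells, whereas Atp6v1b1 (190 CPM), Atp6v0a4 (149 CPM) and the 3 aquaporins were highest in sustentacular-like cells.

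The leading genes were the 30 with the largest ratio of mean CPM over other kept cells, 5 CPM added to both, among genes at 50 CPM or more. Gm933, a predicted protein-coding gene on chromosome 16, led with 1312 against 10.3 CPM and ranged from 489 to 2486. Stap1, a signalling adaptor, followed with 1652 against 30.02, the glycosyltransferase Galnt13 with 550.4 against 6.95 and the cytochrome oxidase subunit Cox8b with 1193 against 28.2. Further leading genes outside the roles above were Cspg5, Rnase1, Pam, Hepacam2, Rcan2, Rasd1, Krt7, Prr18, Asgr1, Gng4, 2610016A17Rik, Tspan1, Nrip3, Ncald and Kl, with ratios from 15.9 (Kl, 94.6 CPM) to 34.6 (Cspg5, 549 CPM). Hepacam2 and Tspan1 set the members apart from most kept cells but much less from tuft-like cells. Hepacam2 was at 555 CPM in members and 456 in tuft-like cells, higher in members in 6 of 7 mice. Tspan1 was at 421 and 405 CPM, higher in members in 5 of 7 mice. Kl encodes klotho, a co-receptor known from kidney and choroid plexus. These 28 leading genes were higher in members in all 8 mice. The remaining 2 of the 30, the secretoglobins Scgb1b27 and Scgb2b27, were higher in 2 mice and 1 mouse only: Scgb1b27 was at 7808 CPM in Upf3b-null replicate 4 and at most 4.33 in any other mouse. In that replicate 5 members held 99.1% of the 9510 Scgb1b27 UMIs, and the gene came to 69.2 CPM in the members of that mouse with 10 or more UMIs.

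A few more genes were picked after their values were seen and stand for no tested list. Atp7a and Atp7b, the 2 copper-exporting ATPases, were at 200.1 and 278.8 CPM in members against 8.66 and 13.7 in other kept cells. Slc31a1, the copper importer, was at 326 against 63.3 CPM, while in sustentacular-like cells it was at 293. Pam, a copper-dependent enzyme that amidates peptides, was at 1458 against 38.9 CPM. Sod1, a cytosolic copper enzyme of most cells, was not higher, at 214 against 296 CPM.

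Structural and signalling genes placed the members among epithelial cells. Krt18, Krt8 and Epcam were at 1154, 581 and 1240.4 CPM, against 399, 203 and 448 in other kept cells, and all 3 were higher still in tuft-like cells. Krt7 was the exception, at 357 CPM against 13.6 in tuft-like and 6.42 in sustentacular-like cells. Espn, which bundles actin in microvilli, was at 145 CPM, against 26.8 in other kept cells and 586 in tuft-like cells. Of the receptors and calcium release genes, P2ry14, the receptor for UDP-sugars, was at 205 against 19.7 CPM and Itpr3, an inositol trisphosphate receptor, at 91.4 against 6.05. Gnas was at 744 CPM, Pde1c at 278.7, Itpr1 at 50.2 and Itpr2 at 44.8, and Adcyap1 had no UMI. Of the 17 Notch pathway genes only the ligand Dll1 was more than 4-fold higher, at 26.1 against 2.45 CPM. Hes6 was at 240 and Hes1 at 124 CPM, and the receptors Notch1, Notch2 and Notch3 were at 11.5, 14.96 and 2.20 CPM. Oxidative phosphorylation genes summed to 17158 CPM in WT and 16566 in Upf3b-null members, led by Cox8a at 2005 CPM. Other kept cells were at 11600 and mature OSN-like cells at 14172 CPM, and the members ranged from 11519 to 22132 over the mice. Mitochondrial transcripts took a median of 12.2% to 15.8% of UMIs per member, against 5.22% to 7.99% over all kept cells of 7 mice and 15.5% in WT replicate 3. Of the antimicrobial and interferon genes, Wfdc2, a secreted protease inhibitor, was the only 1 more than 4-fold higher, at 2191 against 222 CPM. Bpifa1 (1842 CPM, median 256), Lyz2 (1801, median 1870), Ltf (444, median 55.6) and Reg3g (417, median 160) varied widely between mice and were not higher than in other cells.

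Markers of other cell types were present in the members at levels that differed widely between lists and mice, and their part in the results was not tested. Defining tuft markers were nearly absent: Trpm5, which the rule limits, was at 0.883 CPM in members against 529 in tuft-like cells, Gnat3 had no UMI, and Il25 and Alox5ap, which the rule does not use, were at 0.472 and 27.6 CPM against 492 and 1015. The tuft list of 9 genes summed to 52.6 to 168 CPM per mouse and was led by Dclk1. The mature OSN list (8 genes) summed to 315 to 5515 CPM against a mean of 17493 in mature OSN-like cells, and was led by Gng13. The sustentacular list (7) summed to 247 to 2138 CPM, led by Cbr2, the gland list (8) to 401 to 1628, led by Krt7, and the neutrophil list (11) to 184 to 10673, led by S100a8. The horizontal basal list (5) summed to 3.85 to 123 CPM, led by Krt14, the globose basal list (7) to 94.6 to 353, led by Kit, and the immature OSN list (5) to 99.9 to 938, led by Stmn2. The erythroid list (5) reached 210962 CPM in Upf3b-null replicate 3, led by Hbb-bs, against 73.6 to 28340 in the other mice. The macrophage or monocyte list (7, led by Ly6c2), the stromal list (5, led by Col1a1) and the ensheathing glia list (5, led by Apod, with Frzb at 0) stayed at or under 442, 625 and 165 CPM, and the B cell (3 genes measured), endothelial (4) and ciliated (4) lists at or under 78.8 CPM, led by Cd79b, Pecam1 and Dynlrb2. Members with 3 to 9 rule-gene UMIs carried more of these lists than the others when pooled over all mice, to which the mice contributed unevenly: their pooled erythroid sum was 114095 CPM against 10241, their mature OSN sum 5515 against 2353 and their immature OSN sum 1154 against 368.

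The members were divided by Leiden clustering, on variable genes without the rule, Olfr and mitochondrial genes, into 11 groups, which are described without a test. Levels in these groups are CPM pooled over the cells of a group, not means over mice. The 4 groups with the highest Coch followed the libraries. Group 1 (488 cells) came with 480 cells from WT replicates 3 and 4 and was led by Slc43a2 and Egr1. Group 2 (375 cells) came with 374 from WT replicates 1 and 2 and Upf3b-null replicates 1 and 2 and was led by Gm933 and Ascl3. Group 3 held 260 of its 281 cells from Upf3b-null replicate 4, led by Lcn3 and Obp2a and also by the neutrophil genes S100a8 and S100a9 and the stromal genes Mgp and Col3a1, and group 6 held 98 of its 101 cells from Upf3b-null replicate 3, led by Rnase1. In these 4 groups Foxi1 lay between 595 and 649 CPM and Coch between 7184 and 10896, and the median number of rule-gene UMIs was 31 to 45. Because each is nearly confined to certain libraries, they cannot be told apart from library differences.

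The other 7 groups had lower Coch. Group 4 (219 cells, median of 3 rule-gene UMIs) carried neuronal genes such as Stmn2 and Lhx2, and 180 of its cells came from WT replicates 3 and 4. Group 7 (72 cells, median 4) was led by hemoglobin and cell cycle genes, with Hba-a1 at 100668 CPM. Group 8 (64 cells) carried mature OSN genes, with Omp at 2805 CPM, and 62.5% of its cells were among those of highest doublet score, against 8.41% of all members. Group 9 (48 cells) was led by the myeloid genes Elane, Prtn3 and Mpo, and group 11 (29 cells, median 4) by the basal genes Krt5, Krt14 and Trp63. Cells of highest doublet score also made up 26.9% of group 4 and 29.2% of group 9, against 5.93% to 10.3% in groups 5, 7 and 11. Group 5 (118 cells, median 28.5 rule-gene UMIs, from 7 of 8 mice) combined Foxi1 at 540 CPM with gland products, Bpifa1 at 21946 CPM and Wfdc18 at 29367. Group 10 was small, 36 cells, and different in kind. Its cells had the highest Foxi1 of any group (1096 CPM) with Ascl3 at 969.7 and Stap1 at 956, but Coch was at 485 CPM against 6281 in the other members and Scnn1b at 14.1 against 160.5. The same cells carried Rgs13 at 913 CPM, Sct at 555, Chil1 at 401 and Sox9 at 408, genes that in tuft-like cells were at 1993, 294, 557 and 475 CPM as means over 7 mice, as well as Penk at 562 CPM, which had no UMI in tuft-like cells. Other tuft markers were far below their levels in tuft-like cells. Trpm5 was at 21.1 CPM, Il25 at 14.1 and Alox5ap at 35.1 against 529, 492 and 1015 in tuft-like cells, and Gnat3 was at 0. Yet most were above the other members. Trpm5, Pou2f3 and Avil, which the rule limits, were each at 21.1 CPM against 0.787, 1.73 and 0.787 in the other members. Il25 was at 14.1 against 0.472 there, and Alox5ap at 35.1 against 34.1. None of the 36 was among the cells of highest doublet score, and 19 came from Upf3b-null replicate 1.

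**Figure D2:**
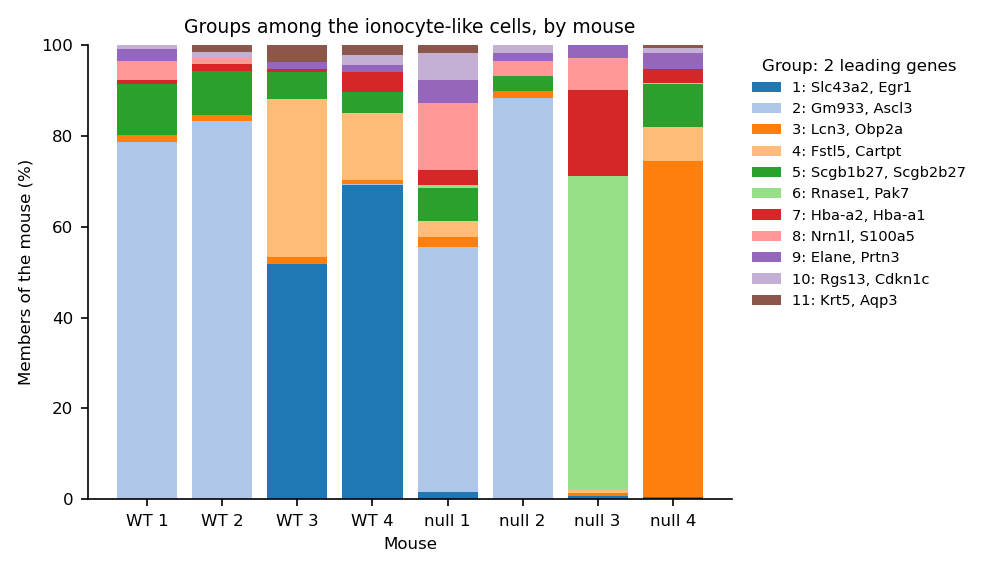
Share of each mouse's ionocyte-like cells (y axis, percent) in the 11 Leiden groups, each named by its 2 leading genes. Group 1 is almost only from WT 3 and WT 4, group 2 from WT 1, WT 2, null 1 and null 2, group 3 from null 4 and group 6 from null 3.

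Whether loss of Upf3b changed how many ionocyte-like cells were recovered was tested over mice. Members were 6.39% (95% interval of counting error, exact binomial, 5.31 to 7.60), 4.99% (3.92 to 6.24), 11.6% (10.4 to 12.9) and 14.6% (13.4 to 15.9) of kept cells in WT replicates 1 to 4. In Upf3b-null replicates 1 to 4 they were 4.37% (3.91 to 4.87), 4.50% (3.45 to 5.75), 8.30% (7.04 to 9.71) and 6.03% (5.43 to 6.67). The 2 highest shares were from WT mice, but the groups overlapped. The mean was 9.41% ± 4.51 (SD, n = 4) in WT and 5.80% ± 1.83 (n = 4) in Upf3b-null mice, a difference of -3.605 percentage points (exact permutation test, two-sided, p = 0.200, smallest p possible 0.0286). With 10 or more UMIs the means were 7.37% ± 2.84 and 4.90% ± 0.998 (n = 4 each, exact permutation p = 0.114). Within the first library group the shares averaged 5.69% in 2 WT and 5.73% in 3 Upf3b-null mice, and within the second they were 11.6% and 14.6% in WT against 6.03% in the only Upf3b-null mouse. Permuting genotype within these groups gave a difference of -2.51 points (exact permutation p = 0.267, n = 8). Relative to sustentacular-like cells, members came to 154% ± 78.5 in WT and 148% ± 65.6 in Upf3b-null mice (exact permutation p = 0.971, n = 4 each). A ratio to tuft-like cells had no value for WT replicate 3, where none were found (0 of 2791 cells, which allows a share of up to 0.107%). The median number of UMIs per member was 2241, 2195, 3586.5 and 3010.0 in WT and 2638, 2999.5, 3382 and 2848 in Upf3b-null mice (difference 209, exact permutation p = 0.571, n = 4 each).

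**Figure D3:**
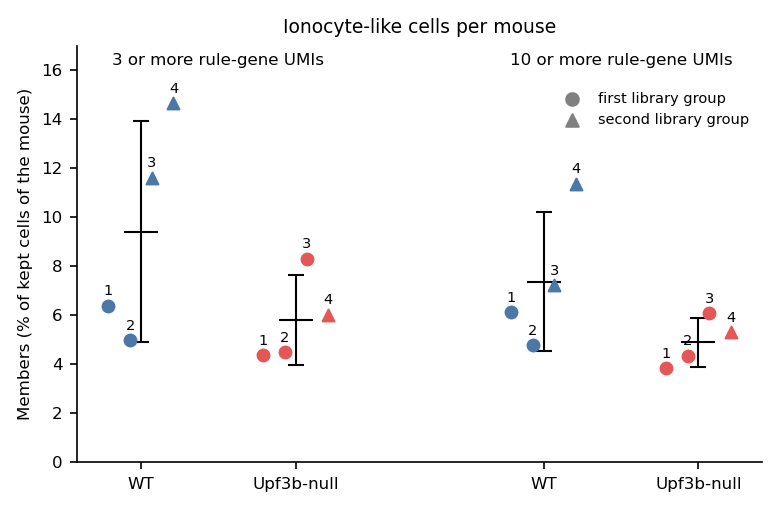
Ionocyte-like cells as percent of the kept cells of each mouse, for members with 3 or more and with 10 or more rule-gene UMIs, points numbered by replicate, bars showing mean and SD (n = 4), symbols showing the 2 library groups. WT replicates 3 and 4 were highest, and the mean difference of -3.605 points had an exact permutation p of 0.200.

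Upf3b itself was the only gene that passed the test between genotypes in ionocyte-like cells. It was at 77.7, 68.3, 87.5 and 96.5 CPM in WT replicates 1 to 4 and at 0.980, 0, 0 and 0.821 in Upf3b-null replicates 1 to 4, where 2 UMIs were found in all. The groups did not overlap, and Upf3b fell by 6.63 on the log2 scale (SE 0.504, adjusted p = 1.26e-05, edgeR quasi-likelihood test with Benjamini-Hochberg adjustment over 8563 genes). This was 1 of 8563 genes, 0.0117%, while 143 genes, 1.67%, had an unadjusted p under 0.05. DESeq2 called 2 genes (0.0234%), Upf3b and Gm8730. With library group as a factor 2 genes passed in edgeR (0.0234%), Upf3b and Mfsd4, and in the 1480 members with 10 or more UMIs 1 of 7084 passed (0.0141%), again Upf3b. In the larger library group alone 0 of 4840 genes passed, with Upf3b at -6.41 on the log2 scale (adjusted p = 0.0908, edgeR). In simulated counts of the same depth and spread, 28.5% of genes given a log2 fold change of 1.5 were found, in a test over 8175 genes with 3 false calls.

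Of the other 9 genes of smallest p, all with an adjusted p of 1.00 in the edgeR test, several separated the genotypes by mouse. Snhg6, a small nucleolar RNA host gene, was at 61.5, 57.8, 45.9 and 57.4 CPM in WT and at 129, 137, 92.4 and 107 in Upf3b-null mice, without overlap (log2 fold change 1.24, SE 0.282). In the members with 10 or more UMIs the same mice had 50.9, 61.1, 43.0 and 48.2 against 109, 109.9, 98.7 and 99.2 CPM. With both that limit and library group as a factor, Snhg6 passed (log2 fold change 1.11, adjusted p = 0.0361, edgeR), in a combination chosen after the values were seen. It was 1 of 7 called genes of 7084 (0.0988%), with Upf3b and Erdr1 lower and Ly6d, Car2 and the leukocyte genes Tyrobp and Lcp1 higher in Upf3b-null mice. Adjusted p-values in that edgeR fit were 0.00704 for Erdr1, 0.0281 for Tyrobp and Lcp1, 0.0352 for Car2 and 0.0419 for Ly6d. Ly6d, a surface protein of the LY6 family, was at 9.72, 5.26, 12.1 and 12.2 CPM in WT and 20.6, 31.5, 29.5 and 41.9 in Upf3b-null mice, again without overlap (log2 fold change 1.67, SE 0.385). In other kept cells Ly6d had a mean of 76.6 CPM, and members were above them in 0 of 8 mice. Erdr1 was lower, at 97.2, 116, 97.9 and 57.4 CPM in WT and 44.1, 21.0, 20.5 and 17.2 in Upf3b-null mice (log2 fold change -1.58, SE 0.375). Hes1, a transcriptional repressor downstream of Notch, was at 97.2, 73.6, 97.0 and 86.8 CPM in WT and 209.6, 168, 98.8 and 158 in Upf3b-null mice (log2 fold change 0.97). Asns, which makes asparagine and belongs to the ATF4 stress response, was at 13.0, 5.26, 2.598 and 9.17 CPM in WT and 15.7, 26.3, 30.8 and 15.6 in Upf3b-null mice (log2 fold change 1.80), but its log2 fold change was 0.34 in members with 10 or more UMIs. Gm8730, Rnaset2a, Ms4a6c and Lsp1 had log2 fold changes of 2.37, 2.29, 1.80 and 1.36 and overlapped between genotypes, and Gm8730 reached 648 CPM in Upf3b-null replicate 1 against 68.3 in replicate 2. RefSeq lists Gm8730 as a pseudogene, so its counts may hold reads of its parent gene and are uncertain. Over all 8563 genes, 0.152% had all 4 Upf3b-null mice above all WT mice and 1.31% had them below, and with edgeR's scaling factors, which are lowest for Upf3b-null replicate 3 (0.723, against 0.999 to 1.10), these shares were 0.490% and 0.736%.

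**Figure D4:**
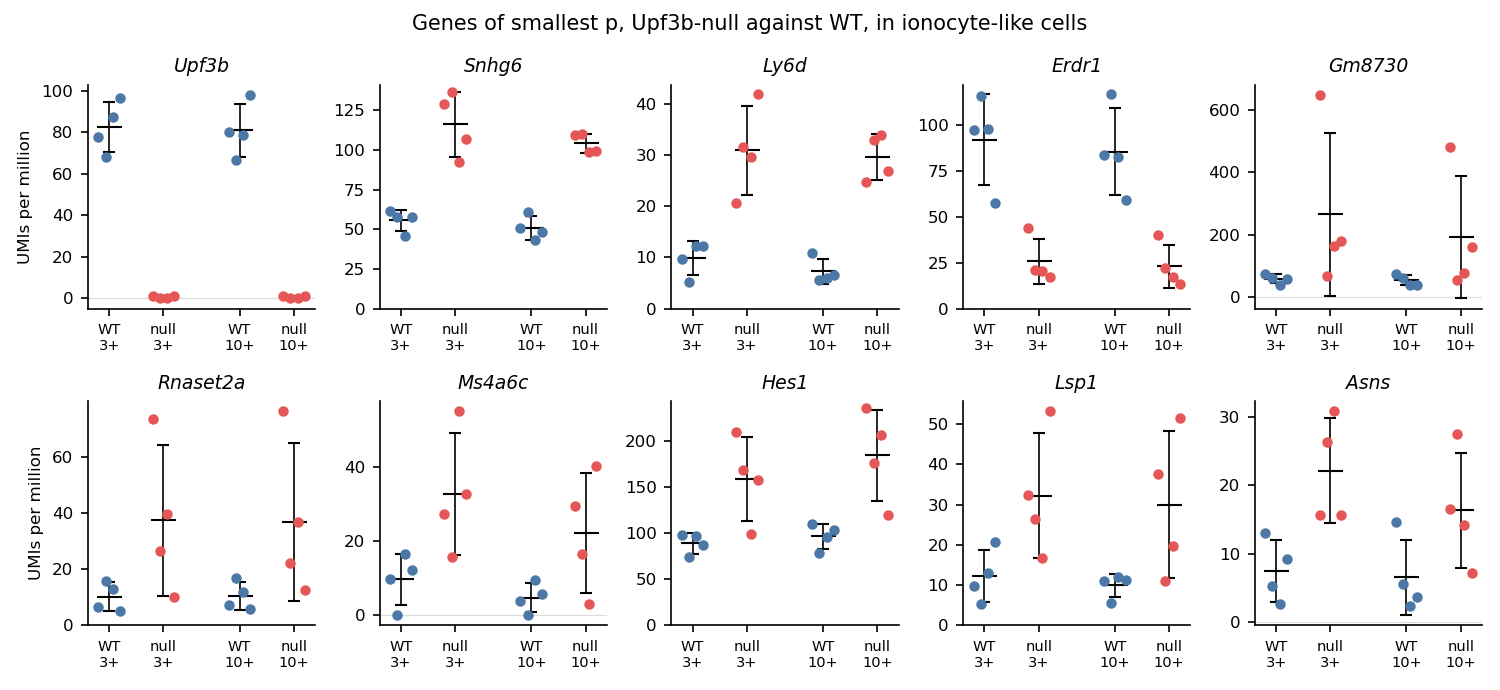
CPM for Upf3b and the 9 genes of next smallest p in ionocyte-like cells, 1 point per mouse (WT blue, Upf3b-null red), with mean and SD (n = 4), for members with 3 or more (3+) and 10 or more (10+) rule-gene UMIs. Upf3b was at most 0.980 CPM in Upf3b-null mice, and Snhg6, Ly6d, Erdr1 and Hes1 did not overlap between genotypes at either limit.

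In the edgeR test of all members, none of the listed gene groups held a called gene other than Upf3b. Under the replicate block and in members with 10 or more UMIs with library group as a factor, Car2, a carbonic anhydrase, was also called. The second of these fits also called Snhg6, a small nucleolar RNA host gene (log2 fold change 1.11, adjusted p = 0.0361, edgeR). Over all genes tested, the log2 fold change was above 0 in 48.7% and below 0 in 51.3%, and the median was -0.01. Of the 13 NMD factors tested, 4 had values above 0 and 9 below, with a median of -0.20. Upf3a, the paralogue of Upf3b, was at 40.7 CPM ± 9.88 (SD, n = 4) in WT and 34.9 ± 8.51 (n = 4) in Upf3b-null mice (log2 fold change -0.05), Upf1 at 39.6 and Upf2 at 56.9 CPM over all mice, and of the exon junction genes Rbm8a was at 174, Magoh at 109 and Eif4a3 at 63.0 CPM. Of 20 known NMD substrates tested, 16 were above 0 and 4 below, with a median of only 0.09, led in level by Rps9 (1718 CPM), Rpl12 (511), Srsf2 (391) and Srsf3 (350.0). Gas5, Snhg1, Snhg5, Snhg8, Snhg15 and Zfas1 were not analysed here. Ionocyte genes outside the rule had 4 values above and 10 below 0 (median -0.15), ion channels and transporters 3 above and 20 below (-0.16), lineage factors 6 above and 15 below (-0.19), and signalling genes 2 above and 6 below (-0.20). V-ATPase subunits had 11 above and 10 below (0.01), Notch genes 5 and 4 (0.06) and epithelial structure genes 5 and 7 (-0.07). Immediate early and stress genes had 12 above and 6 below (0.07), with Hspa8 at 1088, Hsp90aa1 at 621 and Jund at 371 CPM. Oxidative phosphorylation genes had 15 above and 7 below (0.09). Of the carbonic anhydrases only Car2 and Car8 were tested, with log2 fold changes of 4.02 and -0.21 (median 1.90), and the list summed to 71.2 CPM in WT and 567 in Upf3b-null mice. Car2 was at 663 and 440.1 CPM in Upf3b-null replicates 3 and 4 and at most 35.4 in the other 6 mice, so that the genotypes overlapped. Car6, which was not tested, was at 739 CPM in Upf3b-null replicate 4 and at most 3.06 in any other mouse. Pooled over all mice, the list summed to 81.2 CPM in members with 10 or more UMIs and 1249 in those with 3 to 9. In group 7, led by hemoglobin genes, Car2 was at 828 CPM against 111 in the other members. Antimicrobial and interferon genes had 15 above and 6 below (median 0.32). Beside them stood the neutrophil markers, with 8 of 8 tested above 0 (median 1.49), the erythroid markers, 5 of 5 (3.26), and the macrophage or monocyte markers, 4 of 4 (1.00), while all 7 sustentacular markers were below 0 (-0.45). The horizontal basal markers were also below 0, 3 of 3 (-1.003). The part of RNA from other cell types in the genotype values was not tested. Neutrophil genes without S100a8 and S100a9 took 0.0662% ± 0.0542 of the members' UMIs in WT and 0.185% ± 0.192 in Upf3b-null mice (n = 4 each, exact permutation p = 0.343). The highest values, 0.440% and 0.219%, were in Upf3b-null replicates 4 and 3, where mature OSN-like cells also had their highest of the 8 mice, 0.234% and 0.236%.

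Whether the genotype effect differed between ionocyte-like and tuft-like cells was tested as an interaction in 7 mice, since WT replicate 3 had no tuft-like cells. Of 4314 genes, 2 passed, 0.0464% (edgeR quasi-likelihood test, Benjamini-Hochberg), and 130, 3.01%, had an unadjusted p under 0.05. DESeq2 called 0, with 63 genes at an unadjusted p under 0.05. The tuft-like sums rest on 7 to 50 cells per mouse. Dmbt1, a secreted mucosal scavenger receptor, had a log2 difference of -6.12 (SE 1.09, adjusted p = 8.88e-05, edgeR), but it was at 0 in both classes in 5 of these 7 mice. Elsewhere it was at 240.1 CPM in ionocyte-like and 15.8 in tuft-like cells of WT replicate 4 and at 103 and 439 in Upf3b-null replicate 4. Fcer1g, the common gamma chain of Fc receptors, had a log2 difference of 2.64 (SE 0.613, adjusted p = 0.0367, edgeR), with 59 UMIs in all tuft-like cells together. Stmn2, Ncoa6, Obp2a, Wfdc17, Ctss, C1qc, Sct and Naprt were next by p and did not pass. Leaving out 1 mouse gave 2 to 7 genes, with 7 without WT replicate 4 or without Upf3b-null replicate 3, 5 without Upf3b-null replicate 1 and 4 without Upf3b-null replicate 2.

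Ionocyte genes were also present in the bulk mOSN libraries, which the rule did not use. In the RNA-seq of sorted mOSNs, given as CPM of all counted reads, Foxi1 was at 85.1, 41.6, 52.9 and 63.3 CPM in WT replicates 1 to 4 and at 27.7, 261, 123 and 60.03 in Upf3b-null replicates 1 to 4. Ascl3 was at 84.7, 59.9, 79.4 and 60.8 CPM in WT and at 23.0, 194, 159 and 69.3 in Upf3b-null libraries, and Moxd1 at 97.8, 52.7, 91.0 and 76.4 against 21.5, 277, 179 and 81.4. All 3 genes were highest in Upf3b-null replicates 2 and 3 and lowest in Upf3b-null replicate 1, and so were Bsnd, from 3.95 to 102 CPM, and Tfcp2l1, from 10.8 to 96.5. Some markers of other OE cells moved with them. The basal keratin Krt5 was at 270 and 214 CPM in Upf3b-null replicates 2 and 3, against at most 36.8 in the other 6 libraries. Of the tuft genes, Trpm5 was at 0 in 3 of 8 libraries but also highest in Upf3b-null replicates 2 and 3, at 1.95 and 1.84 CPM, as was Sh2d6, at 9.38 and 7.66. Avil was at most 4.93 CPM, and Pou2f3 ranged from 16.9 to 27.9 with its highest value in WT replicate 4. Cyp2g1, a sustentacular gene, ranged from 214 to 1019 CPM. It was highest in Upf3b-null replicate 4, with 623 and 762 CPM in Upf3b-null replicates 2 and 3. Sec14l3 and Cyp2a5 were also highest in Upf3b-null replicate 4, at 405 and 91.7 CPM. The part of RNA from such cells in the ionocyte gene levels was not tested. In RiboTag RNA Foxi1 ranged from 19.8 to 67.6 CPM, Ascl3 from 8.92 to 22.0 and Moxd1 from 20.5 to 32.1, while Trpm5 was at 0 in all 6 libraries and Pou2f3 ranged from 34.2 to 79.9. In bulk RNA, fewer cells of a type and less RNA per cell cannot be told apart. Of the 35 rule and leading genes, 25 had a transcript in these tables, and 2 of them had a median under 1 CPM in RNA-seq and 3 in RiboTag. Coch was low, at 1.64 to 7.04 CPM in RNA-seq, with 1 of its 4 annotated transcripts in the tables.

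**Figure D5:**
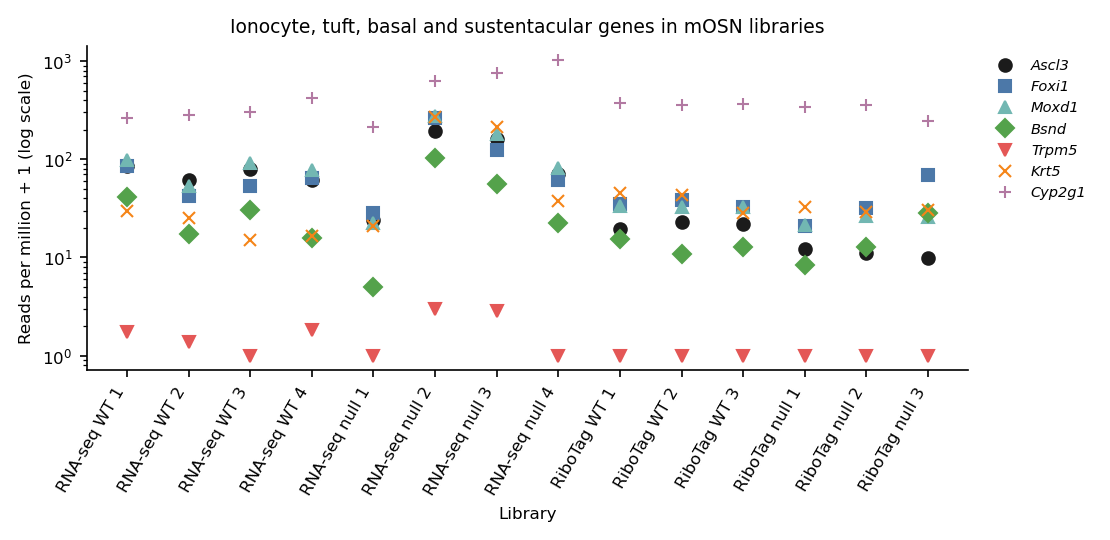
CPM plus 1, on a log axis, of ionocyte genes (Ascl3, Foxi1, Moxd1, Bsnd), a tuft gene (Trpm5), a basal gene (Krt5) and a sustentacular gene (Cyp2g1) in each mOSN RNA-seq and RiboTag library. The ionocyte genes, Krt5 and Trpm5 were highest in RNA-seq of Upf3b-null replicates 2 and 3, with Trpm5 at or below 1.95 CPM.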

How the data were processed

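Cell-by-gene UMI counts of 8 scRNA-seq libraries (10x v2 chemistry, 1 mouse each) were used as the authors deposited them, made with Cell Ranger against mm10 and holding barcodes called as cells. The study's limits on genes and UMIs per cell were applied, with mitochondrial UMIs limited to 20%. Its exclusion of multiplets by lineage markers, its regression and its batch correction were not. Bulk counts per transcript, deposited by the authors, came from STAR 2.5.2b on GRCm38 and featureCounts. They were summed per gene (22646 of 23010 transcripts matched) and divided by library totals of 1216784 to 3264827 counts for RNA-seq and 2691023 to 7542665 for RiboTag.

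The cell class was chosen on these values, so its comparison with other cells carries no test. Members and gene lists were chosen with earlier results of these data known. UMIs of members were summed per mouse (190265 to 1636648) and tested with edgeR 4.0.16 (R 4.3.3) quasi-likelihood fits, genes filtered with filterByExpr, TMM factors and Benjamini-Hochberg adjustment at 0.05. DESeq2 1.42.0 was an alternative. Values per mouse were compared with exact permutation tests, two-sided. P-values measure the spread between mice. Intervals and the limits given by a count of 0 (3 counts) cover counting error only. The edgeR step was tested on simulated data. Doublet scores came from Scrublet in scanpy 1.11.5, with the top 0.8% per 1000 barcodes of each library marked and kept. Groups among members came from Leiden clustering (1500 variable genes, 20 components, 15 neighbours, resolution 0.5).

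Named genes were the rule genes, Upf3b, the 30 leading genes, genes past the test or the 10 of smallest p, and of each list up to 6 of highest level with markers at 0, and other list members are given for contrast. Some genes that the rule names are not reported here. Atp7a, Atp7b, Slc31a1, Sod1 and the genes of groups among members were chosen after their values were seen. Alternatives changed the UMI limit, depth, denominator, filter, normalization, tool, doublets, shared barcodes and the mice included, and those with 10 UMIs or library groups were added after seeing the data.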

Additional observations from a re-analysis of the deposited data

Results flagged for a closer look

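Values per mouse of the rule genes, leading genes and genes of smallest p were searched for 1 sample far from the other 3 of its genotype (Dixon's test at 95%), and 7 of 100 groups of 4 mice held such a sample, where chance gives about 1 in 20. Scgb1b27 was at 7808 CPM and Scgb2b27 at 3621 in Upf3b-null replicate 4 and at 0 in the other Upf3b-null mice, and in WT replicate 3 they were at 4.33 and 12.1 CPM against at most 0.611 in the other WT mice. In Upf3b-null replicate 4, 5 cells held 99.1% of the Scgb1b27 UMIs and 98.8% of the Scgb2b27 UMIs. 2610016A17Rik was at 149 CPM in WT replicate 1, against 91.0 to 99.9 in the other WT mice. Kl was at 85.5 CPM in WT replicate 4, against 118 to 123. Erdr1 was at 44.1 CPM in Upf3b-null replicate 1, against 17.2 to 21.0 in the other Upf3b-null mice.

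In edgeR's interaction test of genotype and cell class, 2 genes passed, Dmbt1 with a log2 difference of -6.12 and Fcer1g with 2.64, and DESeq2 called neither. Dmbt1 was at 0 in both classes in 5 of the 7 mice, so its value rests on WT replicate 4 and Upf3b-null replicate 4 and shows no difference between genotypes beyond these libraries.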

How the results depend on the processing

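The share of ionocyte-like cells had a lower mean in Upf3b-null mice, without passing the test, under every alternative run over both library groups, but not within the first group alone (5.73% against 5.69% in WT), and leaving out 1 mouse gave -5.08 to -1.86 percentage points. The difference in median UMIs ranged from 21.0 to 485 without 1 mouse and turned to -0.375 when median genes per member were compared. Neutrophil RNA differed by 0.0338 to 0.178 percentage points without 1 mouse. The count of genes between genotypes was 1 without any 1 mouse. It was 2 with DESeq2, 2 with the replicate block (Upf3b and Car2), 2 with library group as a factor and 7 with that factor in members with 10 or more UMIs. It was 0 in the larger library group alone (5 mice, 4840 genes, 210 at an unadjusted p under 0.05), where edgeR gave Upf3b -6.41 on the log2 scale at an adjusted p of 0.0908. Mice with the same replicate number had correlations of deviations of 0.20, 0.40, -0.11 and 0.55, so the numbers were not taken as pairs. The interaction gave 2 to 7 genes without 1 mouse and 0 with DESeq2. Causes were not tested. The smallest sums of members held 190265 and 190281 UMIs, and what depth limits was not tested.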
